A study of Mus musculus with 12 samples.

Results

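Spleen CD8+ T cells of C57BL/6 mice given IL-12 were compared here with the same cell type given IL-2, in libraries without TCM. The members were taken from the sample labels, and they are 6 of the 12 libraries in the series, 3 with IL-12 and 3 with IL-2. The other 6 libraries carry the same pair of cytokines with 80%TCM, an abbreviation left unexplained in the labels. Their values are reported only where the cytokine difference is set beside its counterpart with TCM. They were also part of the fit over all 12 libraries, and so of the filter, the scaling and the spread behind every p-value. Both groups are labelled with the strain, the spleen source, the cell type and the cytokine, and both received a cytokine, so that IL-2 is the comparator and no library without one was compared. The dose, the duration, the activation of the cells and the age and sex of the mice are not stated in the labels, and neither is whether the libraries came from separate animals or cultures. The p-values therefore measure only the spread between libraries of a group, pooled over all 12 libraries, and that spread may be technical.

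IL-12 is a cytokine of dendritic cells and macrophages. Its receptor, made of the chains encoded by Il12rb1 and Il12rb2, signals through the kinases TYK2 and JAK2 to STAT4, and in T and NK cells it is best known for driving interferon-γ. IL-2 is made mainly by activated T cells, binds the chains encoded by Il2ra, Il2rb and Il2rg, signals through JAK1, JAK3 and STAT5, and is the growth and survival factor with which CD8+ T cells are commonly cultured.

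Total RNA was sequenced to 49638920, 42349121 and 20685344 gene counts in the IL-12 libraries, against 22011041, 23878713 and 21784630 in the IL-2 libraries. Levels are given as CPM, counts per 1000000 on scaled library sizes, values with ± are means and SDs of 3 libraries, and a gene was called at an adjusted p below 0.05 in edgeR's quasi-likelihood test over 15897 genes. The defining genes of the labelled cell type were high: Cd8a was at 1063, 1097 and 1054 CPM in the IL-12 libraries, against 958, 969 and 793 CPM in the IL-2 libraries. All 6 libraries were high in Cd8a, and the groups did not overlap. It was 1.17-fold higher with IL-12 (adjusted p = 0.013), a call that was lost without IL-2 replicate 3 (adjusted p = 0.055) and under upper-quartile scaling (adjusted p = 0.092). Cd3e averaged 265 ± 18.1 CPM with IL-12 against 289 ± 23.8 CPM with IL-2 and was not called (adjusted p = 0.18, against 0.045 with upper-quartile scaling), while Cd4 was at 0.589 CPM with IL-12 against 1.2 CPM with IL-2.

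The first principal component of the 6 libraries held 79.2% of the variance and separated the cytokines, and the second, with 12.7%, set IL-2 replicate 3 (score 24.5) apart from IL-2 replicates 1 and 2 (-14.1 and -12.7). Against the mean of its companions, IL-2 replicate 3 was more than 2-fold higher in 161 genes and below 0.5 of it in 16. In the 8789 genes whose mean reached 10 CPM, the median coefficient of variation was 3.74% with IL-12 and 6.55% with IL-2, and 2.75% between IL-2 replicates 1 and 2. List counts that moved by over 1.5 times without this library are given with and without it.

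IL-12 against IL-2 changed 7171 of the 15897 genes tested, which is 45.1%. Of these, 3511 genes rose (22.1%) and 3660 fell (23.0%), shares of genes at all levels against which every gene list is read. In 57.2% of the genes tested the 3 IL-12 libraries lay wholly above or wholly below the 3 IL-2 libraries. Most changes were small: the median fold of the called genes was 1.43, and 582 genes rose (3.66% of those tested) and 1164 fell (7.32%) by at least 2-fold. Large changes of well-expressed genes were upward. Among genes with at least 10 CPM in the higher group, 89 rose and 38 fell by at least 4-fold, 42 rose and 8 fell by at least 8-fold, and 25 rose and 0 fell by at least 16-fold.

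Direction went with the level of a gene. Of the called genes with a mean above 100 CPM, 73.2% were higher with IL-12, against 23.1% of those with a mean of at most 1 CPM. Above 100 CPM 57.7% of the genes were called, against 27.0% at a mean of at most 1 CPM. The shares over all genes tested are therefore not matched to the level of a list's genes. Upper-quartile scaling, which shifted the median log2 fold change of all genes to -0.09 against -0.01 with TMM scaling, called 2593 genes higher (16.3% of those tested) and 4532 lower (28.5%), so that 36.4% of the calls were upward in place of 49.0%. Small shifts of whole lists are therefore relative to the scaling. Without IL-2 replicate 3, 3239 genes were called higher and 3241 lower (19.9% each of the genes tested there), and 5961 of the 7171 genes (83.1%) were called again with the same sign. None of the 7171 had the opposite sign there.

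**Figure D1:**
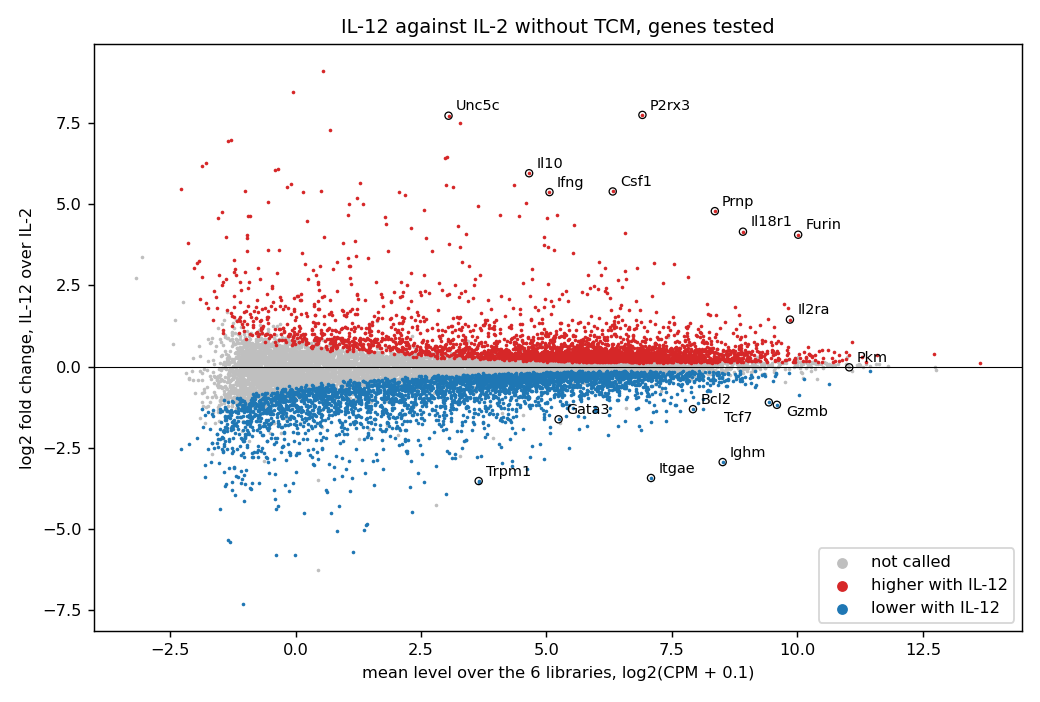
Log2 fold change of IL-12 over IL-2 (y axis) against the mean level of each of the 15897 genes tested (x axis, log2 of CPM + 0.1), 1 point per gene, red where higher with IL-12, blue where lower, grey where not called. The genes far from 0 at high levels lie above the line, with P2rx3 at 7.75 and Furin at 4.06, and Itgae at -3.43 and Ighm at -2.94 are the labelled genes farthest below it at more than 100 CPM in the higher group.

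The receptor and kinase genes of the IL-12 pathway did not move as a block. Of 10 tested, 3 rose, 4 fell and 3 were not called, with a median log2 fold change of -0.05. Il12rb2, the chain that carries STAT4 docking, was at 326, 311 and 324 CPM in the IL-12 libraries, against 110.5, 117 and 168 CPM in the IL-2 libraries. Every IL-12 library lay above every IL-2 library, of which replicate 3 was the highest. The difference was 2.39-fold (log2 fold change 1.26 with SE 0.17, adjusted p = 5.7e-05). Il12rb1, the chain shared with the IL-23 receptor, averaged 84.8 ± 3.83 CPM with IL-12 against 87.5 ± 18.3 CPM with IL-2 and was not called (adjusted p = 0.73). Il6st, the signalling chain of IL-6 family receptors, rose 2.55-fold to 335 ± 12.9 CPM with IL-12 against 129 ± 18.4 CPM with IL-2, and Il23r rose 4.32-fold at the low level of 1.44 CPM with IL-12 against 0.325 CPM with IL-2. Stat4 itself fell 1.21-fold, at 81.6 ± 1.35 CPM with IL-12 against 97.5 ± 3.14 CPM with IL-2, as did Jak2 (1.36-fold lower).

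Genes known to follow IL-12 or STAT4 held the highest list median, 2.51 on the log2 scale against -0.01 over all genes tested, with 15 of 20 higher and 2 lower. The lists were chosen with earlier results of these data known, so that rank is a description and no test of the list. Ifng, the interferon-γ gene, was at 67.1, 68.9 and 59 CPM in the IL-12 libraries, against 1.32, 2.23 and 1.04 CPM in the IL-2 libraries. The 3 IL-12 libraries were all far above the IL-2 libraries, in which the gene was barely expressed. The rise was 41.5-fold (log2 fold change 5.37 with SE 0.16, adjusted p = 3.7e-11). Furin, a proprotein convertase that STAT4 is known to induce in T cells, reached 1929.7, 2076 and 1856 CPM in the IL-12 libraries, against 109, 127 and 109.7 CPM in the IL-2 libraries. It was among the most abundant of these genes, with no overlap between groups, and rose 16.7-fold (log2 fold change 4.06 with SE 0.07, adjusted p = 2.5e-13).

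Both chains of the IL-18 receptor rose. Il18r1 was at 897, 941 and 906 CPM in the IL-12 libraries, against 50.8, 50.03 and 50.8 CPM in the IL-2 libraries, with all IL-2 libraries within a few CPM of each other and the IL-12 libraries far above them, a 17.8-fold difference (adjusted p = 5.5e-13). Il18rap was 6.74-fold higher, at 396 ± 12.7 CPM with IL-12 against 57.7 ± 9.31 CPM with IL-2. In the wider list of IL-18, IL-33 and IL-1 receptor genes 6 of 13 rose and 3 fell: Il1rl1, the IL-33 receptor, rose 12.1-fold to 65.6 ± 1.69 CPM with IL-12 against 5.36 ± 1.29 CPM with IL-2, and Myd88, the adaptor of these receptors, rose 2.6-fold. Irak3, a kinase-dead relative of the IRAK kinases that restrains them, fell 2.32-fold at 0.667 CPM with IL-12 against 1.57 CPM with IL-2.

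Further known followers of IL-12 that rose were Il10, Map3k8, which encodes the MAP kinase kinase kinase TPL2, and Gadd45g, an activator of p38 signalling. Gadd45g reached 178 ± 15.6 CPM with IL-12 against 10.04 ± 0.565 CPM with IL-2 (17.5-fold higher) and Map3k8 122 ± 8.46 CPM with IL-12 against 24.9 ± 0.816 CPM with IL-2 (4.81-fold higher); both were chosen for mention after their values were seen. Cxcr3, a chemokine receptor of type 1 effector cells, went the other way, at 75.3 ± 3.86 CPM with IL-12 against 144 ± 23.3 CPM with IL-2, 1.94-fold lower with IL-12.

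As STAT proteins bind the palindrome TTCNNNGAA, promoters of the 15 genes with the highest and the 15 with the lowest log2 fold changes among called genes without overlap between the groups were searched for it on both strands. RefSeq promoters of mouse build GRCm38.p6, from 250 bases before to 50 after the start, were found for 12 of the 15 higher and 8 of the 15 lower genes, with 15 and 13 promoters. The motif was in 1 promoter of each set, those of Ifng and of Tspan9, a tetraspanin, against 8.3% of all 32851 promoters. Both are shown upstream of the start, 5′ to 3′ on the gene's strand, with the motif in capitals. The Ifng window lies at chr10:118440796-118441045 on the plus strand and the Tspan9 window, from 1 of its annotated starts, at chr6:128095470-128095719 on the minus strand.
Ifng: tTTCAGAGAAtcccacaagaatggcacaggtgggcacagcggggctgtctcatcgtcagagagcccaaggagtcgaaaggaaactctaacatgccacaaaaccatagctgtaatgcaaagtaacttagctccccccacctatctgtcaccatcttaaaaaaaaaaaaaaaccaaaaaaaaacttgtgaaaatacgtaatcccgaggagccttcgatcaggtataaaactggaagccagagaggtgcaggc
Tspan9: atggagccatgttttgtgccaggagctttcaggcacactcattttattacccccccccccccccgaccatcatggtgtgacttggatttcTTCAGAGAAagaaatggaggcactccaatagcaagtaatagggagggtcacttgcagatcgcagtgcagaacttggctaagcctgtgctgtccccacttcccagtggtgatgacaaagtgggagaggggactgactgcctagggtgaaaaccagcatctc
The motif starts 249 bases before the start of Ifng, a gene 41.5-fold higher, and 160 bases before that of Tspan9, a gene 7.57-fold lower. The AP-1 site TGANTCA, searched separately, so that matches of different motifs may overlap, was in 4 promoters of the higher set (Rufy4, Serpinb5, Prnp and P2rx7) and in 0 of the lower set, against 7.81% of all promoters. The E-box CACGTG was in 1 promoter of each set, against 7.15%. A match is a stretch of letters, and no binding was measured.

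**Figure D2:**
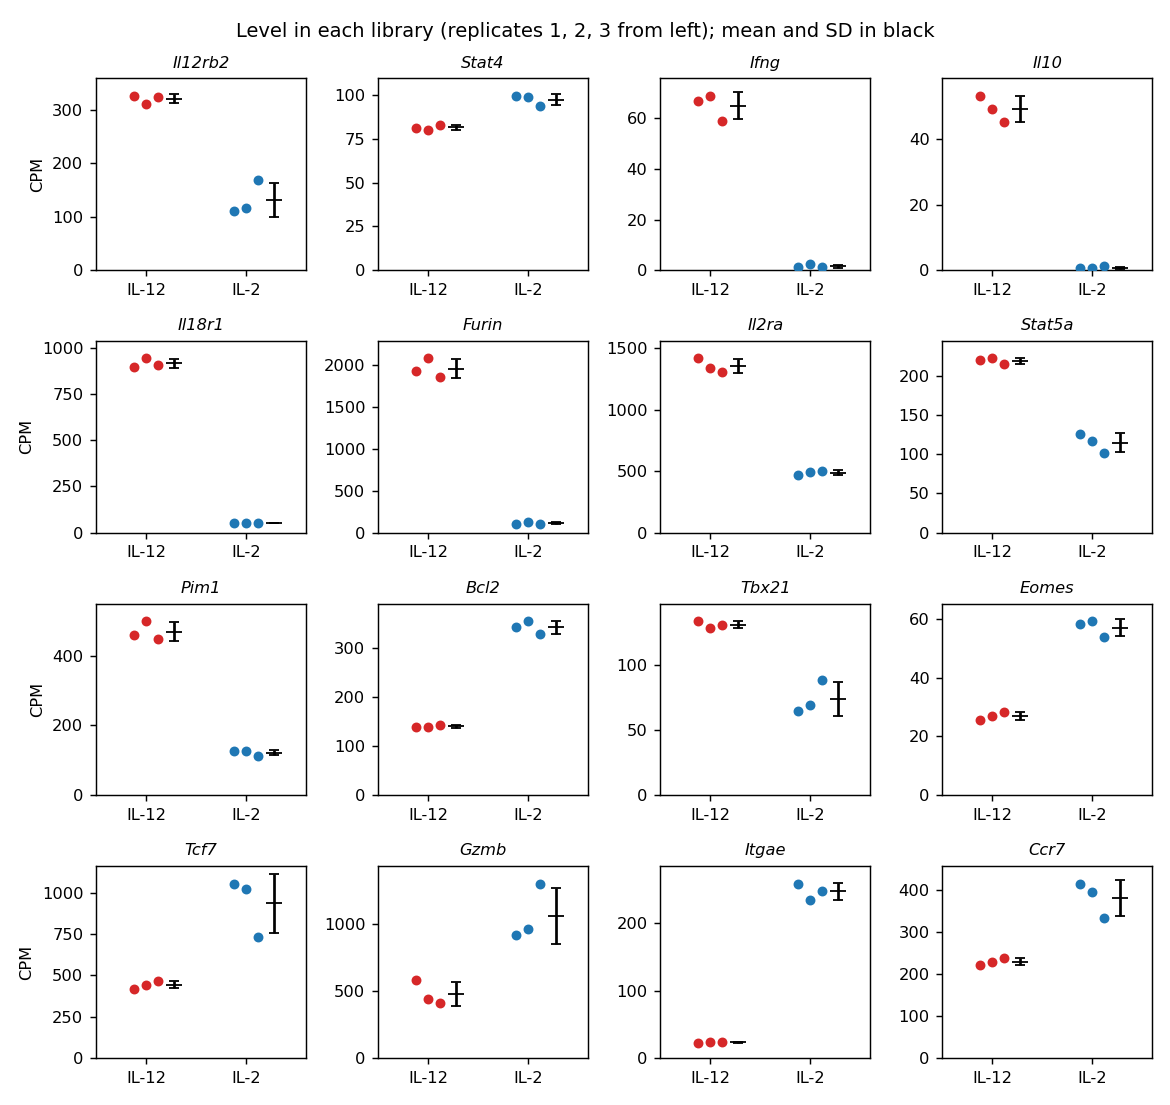
Level of 16 genes in each library (y axis, CPM from 0), IL-12 in red on the left and IL-2 in blue on the right, with replicates 1, 2 and 3 from left to right and the mean with its SD in black. Il12rb2, Ifng, Il10, Il18r1, Furin, Il2ra, Stat5a, Pim1 and Tbx21 lay higher in every IL-12 library, and Stat4, Bcl2, Eomes, Tcf7, Gzmb, Itgae and Ccr7 lay lower in every IL-12 library.

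The 15 genes with the highest log2 fold changes among called genes with at least 10 CPM and no overlap included 2 ATP-gated ion channels. P2rx3 had 241, 241 and 236 CPM in the IL-12 libraries, against 1.45, 1.17 and 0.649 CPM in the IL-2 libraries, and it was near 0 in every IL-2 library. It rose 215-fold (log2 fold change 7.75 with SE 0.16, adjusted p = 1.5e-12). P2rx7, whose channel senses extracellular ATP on T cells, had 70.8 ± 2.8 CPM with IL-12 against 2.72 ± 0.399 CPM with IL-2 (25.6-fold higher). Csf1, the macrophage growth factor M-CSF, had 159, 163 and 146 CPM in the IL-12 libraries, against 4.0, 4.25 and 2.68 CPM in the IL-2 libraries, without overlap, and rose 42-fold. Prnp, the prion protein gene, was the most abundant of the 15, with 635, 637 and 624 CPM in the IL-12 libraries, against 22.7, 24.9 and 20.1 CPM in the IL-2 libraries. All IL-12 libraries were above 500 CPM and all IL-2 libraries below 30 CPM for Prnp, a 27.6-fold difference.

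Il10, an anti-inflammatory cytokine that IL-12 is known to induce in T cells, was at 53.4, 49.4 and 45.3 CPM in the IL-12 libraries, against 0.528, 0.689 and 1.13 CPM in the IL-2 libraries, with no overlap, and rose 62-fold (log2 fold change 5.95 with SE 0.15, adjusted p = 9.2e-12). Also among the 15 were Ret, a receptor tyrosine kinase (40.1 ± 5.05 CPM with IL-12 against 0.809 ± 0.202 CPM with IL-2), Mgll, the lipase that breaks down monoacylglycerols (24 ± 0.404 CPM with IL-12 against 0.766 ± 0.115 CPM with IL-2), Fam20a, a pseudokinase of the secretory pathway (46.7 ± 2.58 CPM with IL-12 against 1.4 ± 0.414 CPM with IL-2), and Rufy4 (15.4 ± 1.27 CPM with IL-12 against 0.311 ± 0.0507 CPM with IL-2). In 5 others the fold moved by over 1.5 times when a single library was left out. Log2 fold changes were 7.73 for the netrin receptor Unc5c (9.29 without IL-2 replicate 1), 6.47 for the chemokine receptor Cxcr1 (7.78 without IL-2 replicate 2) and 6.43 for the zinc-finger factor Mecom (7.11 without IL-2 replicate 1). They were 5.54 for Serpinb5 (6.23 without IL-2 replicate 2) and 4.83 for Ano7 (5.43 without IL-2 replicate 3). All 15 stayed called when any 1 of the 6 libraries was left out. With limma on log2(CPM + 1), which shrinks folds of genes near 0, P2rx3 had 6.86, Ifng 4.73 and Unc5c 4.01.

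Of the 15 genes at the lower end, Itgae stood out by level. It encodes CD103, the αE integrin chain that holds resident T cells to epithelium and is induced by TGF-β. Itgae had 22.8, 23.2 and 24.2 CPM in the IL-12 libraries, against 259, 235 and 249 CPM in the IL-2 libraries. The IL-12 libraries were within 2 CPM of each other and all far below the IL-2 libraries, 10.8-fold lower (log2 fold change -3.43 with SE 0.10, adjusted p = 2.2e-11). Ighm, the immunoglobulin μ heavy chain gene, had 87.4, 83.1 and 84.8 CPM in the IL-12 libraries, against 774, 727 and 432 CPM in the IL-2 libraries. All IL-12 libraries were below all IL-2 libraries, of which replicate 3 was the lowest, and the gene was 7.67-fold lower (adjusted p = 3.3e-06).

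The others at the lower end were Trpm1, a cation channel (2.06 ± 0.354 CPM with IL-12 against 22.8 ± 5.5 CPM with IL-2), the calpain protease Capn5 (0.947 ± 0.143 CPM with IL-12 against 10.7 ± 0.544 CPM with IL-2), the interferon-inducible GTPase Gbp10 (5.0 ± 0.422 CPM with IL-12 against 43.8 ± 10.8 CPM with IL-2) and Epas1, which encodes HIF-2α (3.07 ± 0.577 CPM with IL-12 against 21.2 ± 9.86 CPM with IL-2). Dapl1 had 7.61 ± 0.551 CPM with IL-12 against 54.1 ± 8.07 CPM with IL-2, Slc6a19, a neutral amino acid transporter, 3.97 ± 0.221 CPM with IL-12 against 30.3 ± 6.97 CPM with IL-2, and Cyp11a1, the enzyme that starts steroid hormone synthesis, 2.19 ± 0.182 CPM with IL-12 against 14.9 ± 0.523 CPM with IL-2. Also among them were Tspan9 (7.57-fold lower), Tspan32 (6.9-fold lower) and the Rab regulator Tbc1d16 (7.05-fold lower). The calls of all genes named so far at this end, and of Nrn1, held when any 1 of the 6 libraries was left out. Nrn1 had a log2 fold change of -2.76, against -2.16 without IL-2 replicate 3. Selenbp1 (-3.92) and Pygl, a glycogen phosphorylase (-3.54), lost their calls without IL-2 replicate 3, at -2.0 (adjusted p = 0.21) and -0.76 (adjusted p = 0.63). Both also missed the threshold when any 1 IL-12 library was left out, though their folds stayed as large, at -3.98 to -3.82 for Selenbp1 (adjusted p = 0.054 to 0.066) and -3.57 to -3.47 for Pygl (adjusted p = 0.079 to 0.11). Pygl was at 1.94, 2.0 and 2.22 CPM in the IL-12 libraries, against 3.48, 3.32 and 62.3 CPM in the IL-2 libraries. Only IL-2 replicate 3 was high.

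Of 10 IL-2 receptor, kinase and STAT5 genes 4 rose and 0 fell, and with upper-quartile scaling 4 were higher and 2 lower. Il2ra, the high-affinity chain CD25, was at 1418, 1343 and 1310.4 CPM in the IL-12 libraries, against 467, 497 and 505 CPM in the IL-2 libraries. The groups did not overlap, and the gene was 2.73-fold higher (log2 fold change 1.45 with SE 0.06, adjusted p = 1.5e-09). Il2rg, the common γ chain, rose 1.4-fold, Stat5a 1.88-fold and Stat5b 1.39-fold, whereas Il2rb, at 1221 ± 20.2 CPM with IL-12 against 1088 ± 144 CPM with IL-2, was not called (adjusted p = 0.37). Without IL-2 replicate 3 its log2 fold change was 0.27 and it was not called either (adjusted p = 0.089), whereas dropping replicate 3 from both IL-2 and IL-2 TCM, an alternative chosen with earlier results of these data known, called it at 0.26 (adjusted p = 5.4e-05).

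Genes known to follow IL-2 or STAT5 were divided, 6 of 26 higher and 12 lower, with a median of -0.32. The kinase gene Pim1 had 459, 499 and 448 CPM in the IL-12 libraries, against 126, 128 and 114 CPM in the IL-2 libraries and rose 3.77-fold; its relative Pim2 rose 3.02-fold to 692 ± 22.1 CPM with IL-12 against 226 ± 32.8 CPM with IL-2. In both kinases the libraries of the groups were well apart. Bcl2, the survival gene that IL-2 is known to sustain, had 139, 139 and 144 CPM in the IL-12 libraries, against 343, 356 and 330.3 CPM in the IL-2 libraries. It was 2.48-fold lower in IL-12, without overlap (log2 fold change -1.31 with SE 0.05, adjusted p = 2.7e-10). Also lower were Il4ra (114 ± 7.24 CPM with IL-12 against 290.1 ± 27.8 CPM with IL-2) and the cell cycle kinase Cdk6 (116 ± 10.3 CPM with IL-12 against 263 ± 18.4 CPM with IL-2), and of the STAT5 feedback genes Socs2 (2.32-fold lower) and Cish (1.95-fold lower). In the feedback list of SOCS, PIM, DUSP and Sprouty genes 14 of 23 rose and 5 fell. Socs3, an inhibitor of JAK signalling by IL-6 and IL-12 family receptors, rose 2.56-fold to 81.7 ± 4.53 CPM with IL-12 against 31.4 ± 1.95 CPM with IL-2, and the MAP kinase phosphatase gene Dusp10 fell 1.52-fold.

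Receptors for other cytokines were lower as a list, with 13 of 20 lower and 4 higher and a median of -0.55. Ifngr2, the signalling chain of the interferon-γ receptor, fell 4.74-fold, with 4.1, 3.76 and 3.02 CPM in the IL-12 libraries, against 17.5, 16.6 and 17.6 CPM in the IL-2 libraries. No IL-12 library reached the lowest IL-2 library. Both chains of the type I interferon receptor also fell, Ifnar2 to 50.5 ± 2.68 CPM with IL-12 against 100.4 ± 2.96 CPM with IL-2 and Ifnar1 to 159 ± 5.06 CPM with IL-12 against 257 ± 11 CPM with IL-2. Il7r, the receptor for the homeostatic cytokine IL-7, was an exception, 1.93-fold higher at 366 ± 16 CPM with IL-12 against 187 ± 21.4 CPM with IL-2.

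Among 19 cytokine and TNF-family ligand genes, 9 rose and 7 fell. Besides Ifng, Il10 and Csf1, the called rises included Tnf at 14.7 ± 1.09 CPM with IL-12 against 5.82 ± 1.58 CPM with IL-2 (2.49-fold higher) and, chosen after their values were seen, the death ligand genes Fasl (39.7 ± 1.51 CPM with IL-12 against 19.1 ± 2.43 CPM with IL-2) and Tnfsf10, which encodes TRAIL (115 ± 4.78 CPM with IL-12 against 60.2 ± 4.24 CPM with IL-2). Ltb, which encodes lymphotoxin β, rose 1.65-fold to 619 ± 19.8 CPM with IL-12 against 369 ± 47.3 CPM with IL-2. Tnfsf8, which encodes the CD30 ligand, fell 1.67-fold, and Tnfsf11, which encodes RANKL, fell 4.5-fold at 0.505 CPM with IL-12 against 2.2 CPM with IL-2. Il2 itself was below the filter on low counts.

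Chemokine genes were low in all libraries. Of 9 tested, 5 rose and 2 fell, led by Cxcl10, an interferon-γ-inducible ligand of CXCR3, at 10.1 ± 1.6 CPM with IL-12 against 1.41 ± 0.403 CPM with IL-2, Xcl1 at 17.8 ± 1.26 CPM with IL-12 against 7.67 ± 0.786 CPM with IL-2 and Ccl4 at 7.22 ± 0.632 CPM with IL-12 against 2.47 ± 0.435 CPM with IL-2. Ccl22, a ligand of CCR4, fell 2.55-fold at 1.2 CPM with IL-12 against 3.02 CPM with IL-2. Of 13 chemokine receptors in the list 3 rose and 6 fell, and the list does not hold every chemokine receptor gene that rose. Cxcr1 and Cxcr2 were both called higher, at log2 fold changes of 6.47 and 4.60. Cxcr6, a receptor of tissue-resident T cells, rose 6.0-fold to 275 ± 12.5 CPM with IL-12 against 45.1 ± 5.79 CPM with IL-2, and Xcr1 rose 4.83-fold. The gut-homing receptor Ccr9 fell 4.66-fold, Ccr8 3.6-fold and the lymph node homing receptor Ccr7 1.68-fold, the last at 229.9 ± 8.6 CPM with IL-12 against 382 ± 42.9 CPM with IL-2.

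The cytotoxic granule list had no common direction, with 7 of 21 higher, 6 lower and a median of 0.06. Gzmb, granzyme B and the most abundant granzyme here, had 580.0, 444 and 412 CPM in the IL-12 libraries, against 921, 965 and 1305 CPM in the IL-2 libraries. IL-12 replicate 1 was the highest of its group and IL-2 replicate 3 the highest of its own, and the groups did not overlap. The gene was 2.26-fold lower with IL-12 (log2 fold change -1.18 with SE 0.20, adjusted p = 0.00042). Gzmc fell 2.85-fold, Gzmm 2.42-fold and the granzyme inhibitor gene Serpinb6b 1.82-fold. Gzmk rose 2.56-fold to 13.4 ± 0.988 CPM with IL-12 against 5.14 ± 1.22 CPM with IL-2, the granule membrane gene Nkg7 2.06-fold to 568 ± 4.52 CPM with IL-12 against 271 ± 7.49 CPM with IL-2, and Rab27a, which docks granules, 1.45-fold. Gzma averaged 134 ± 4.24 CPM with IL-12 against 126 ± 11.4 CPM with IL-2 and was not called (adjusted p = 0.63). Prf1, perforin, averaged 36.4 ± 2.11 CPM with IL-12 against 22.5 ± 9.03 CPM with IL-2, without overlap, and was not called (adjusted p = 0.12). Without IL-2 replicate 3 it was called, at a log2 fold change of 1.06 (adjusted p = 0.025). With all 6 libraries kept, edgeR also called it with the 2 groups alone (adjusted p = 0.035), with the replicate block (0.048) and without the low-count filter (4.2e-15). The highest adjusted p under any alternative was 0.29. Granzyme genes are close relatives, and reads shared between them may be split.

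Of 20 killer lectin-like and NK receptor genes, 10 rose and 6 fell. Klrg1, a marker of terminal effector cells, rose 14.7-fold at a low level (4.07 ± 0.518 CPM with IL-12 against 0.269 ± 0.204 CPM with IL-2). Klrc1 and Klrc2, which encode NKG2 receptors that pair with CD94, rose 2.41-fold and 2.17-fold, and Klrk1, which encodes NKG2D, fell 1.78-fold to 141 ± 4.68 CPM with IL-12 against 246 ± 2.21 CPM with IL-2. Klra and Klrc genes are near-identical copies, so the split of reads among them is uncertain.

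Inhibitory receptors rose and fell in equal number, 7 and 7 of 23. Btla rose, at 94.9, 97 and 107 CPM in the IL-12 libraries, against 15.1, 16.6 and 10.2 CPM in the IL-2 libraries, and so did Cd200, at 56.1 ± 1.73 CPM with IL-12 against 9.46 ± 0.826 CPM with IL-2. For Btla the groups were far apart. Adora2a, an adenosine receptor gene, rose 2.45-fold to 135 ± 3.16 CPM with IL-12 against 54.4 ± 5.79 CPM with IL-2, and Pdcd1, which encodes PD-1, rose 2.54-fold to 43.5 ± 1.56 CPM with IL-12 against 16.8 ± 3.95 CPM with IL-2. Genes that fell were Havcr2, which encodes TIM-3 (2.02-fold lower), Ctla4 (173 ± 11.5 CPM with IL-12 against 245 ± 6.63 CPM with IL-2), Tigit (1.31-fold lower), Cd244a (3.35-fold lower) and the exhaustion-linked factor Tox (2.12-fold lower at 3.61 CPM with IL-12 against 7.49 CPM with IL-2). Lag3 averaged 144 ± 3.35 CPM with IL-12 against 137 ± 44.9 CPM with IL-2 and was not called (adjusted p = 0.89). It was not called without IL-2 replicate 3 either, at a log2 fold change of 0.36 (adjusted p = 0.2), and it was called when replicate 3 was dropped from both IL-2 and IL-2 TCM, at 0.36 (adjusted p = 2.1e-06). Without IL-2 replicate 1 or 2 the sign turned, at -0.087 and -0.062. Of 20 costimulatory and TNF receptor genes, 7 rose and 5 fell: Icos rose 2.62-fold to 253 ± 9.18 CPM with IL-12 against 95 ± 2.55 CPM with IL-2, Tnfrsf25, which encodes the TL1A receptor DR3, rose 7.09-fold and Slamf1 1.63-fold, while Slamf6 fell 2.0-fold, Cd226 1.68-fold and Cd27 1.5-fold.

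The transcription factors of effector and memory CD8+ T cells were divided too, 11 of 30 higher and 9 lower. Tbx21, which encodes T-bet, a partner of IL-12 in type 1 responses, had 134, 129 and 131 CPM in the IL-12 libraries, against 64.6, 69.3 and 89.1 CPM in the IL-2 libraries. IL-2 replicate 3 was the highest of its group, still below all IL-12 libraries, and the rise was 1.74-fold (log2 fold change 0.80 with SE 0.13, adjusted p = 0.00026). Its relative Eomes moved the other way, at 27 ± 1.29 CPM with IL-12 against 57 ± 2.93 CPM with IL-2 (2.15-fold lower). Tcf7, which encodes TCF-1, a factor of memory and stem-like cells, had 421, 445 and 464 CPM in the IL-12 libraries, against 1057, 1024 and 732 CPM in the IL-2 libraries. It was lowest in the IL-12 libraries without overlap, 2.14-fold lower (log2 fold change -1.10 with SE 0.17, adjusted p = 0.00019). Id2 rose 2.04-fold to 302 ± 12.2 CPM with IL-12 against 145 ± 17.4 CPM with IL-2 and its counterpart Id3 fell 2.94-fold to 5.92 ± 0.325 CPM with IL-12 against 17.2 ± 3.47 CPM with IL-2; Id2 is known to favour effector and Id3 memory cells. Bcl6 (2.04-fold) and Zeb1 (1.49-fold) rose as well, and Myb fell 3.56-fold to 51 ± 1.42 CPM with IL-12 against 179 ± 53.7 CPM with IL-2.

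Regulators of helper lineages included Gata3, the type 2 factor, which fell 3.08-fold to 18.7 ± 0.619 CPM with IL-12 against 56.7 ± 1.25 CPM with IL-2, Rora, which rose 2.52-fold to 55.8 ± 1.49 CPM with IL-12 against 21.8 ± 3.4 CPM with IL-2, and Foxp3, which was low at 0.608 CPM with IL-12 against 1.59 CPM with IL-2 and lower. The activation factors of the AP-1, EGR, NR4A and NFAT families and related early genes were mainly higher, 14 of 22 higher and 3 lower with a median of 0.54. The AP-1 subunit gene Jun had 255, 257 and 251 CPM in the IL-12 libraries, against 30.9, 24.8 and 27.2 CPM in the IL-2 libraries, and Fosl2 averaged 119.8 ± 3.29 CPM with IL-12 against 12.7 ± 2.5 CPM with IL-2. Both were far higher in every IL-12 library, 9.07-fold for Jun and 9.27-fold for Fosl2. Fos (12.6 ± 4.41 CPM with IL-12 against 2.42 ± 1.03 CPM with IL-2), Egr1 (20.5 ± 3.12 CPM with IL-12 against 7.41 ± 1.89 CPM with IL-2) and Nr4a1 (13.1 ± 0.218 CPM with IL-12 against 8.5 ± 0.866 CPM with IL-2), named after their values were seen, rose as well. Nfatc2 rose 1.55-fold while Nfatc1 fell 1.51-fold and the NR4A gene Nr4a3 fell 1.93-fold. Of 19 NF-κB genes 11 rose and 3 fell: the non-canonical subunit gene Nfkb2 rose 1.64-fold, the inhibitor gene Nfkbib 1.62-fold and Birc3 1.45-fold, and Rel fell 1.78-fold and Nfkb1 1.24-fold. With upper-quartile scaling 7 of them were higher and 3 lower.

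Homing and quiescence genes were even, 6 of 24 higher and 6 lower. Rasgrp2, an activator of the adhesion GTPase Rap1, fell 3.19-fold to 80.9 ± 4.68 CPM with IL-12 against 254 ± 27.3 CPM with IL-2, and the antiproliferative gene Btg2 fell 1.95-fold while its relative Btg1 rose 2.12-fold to 781 ± 33.7 CPM with IL-12 against 364 ± 49.1 CPM with IL-2. Integrins and adhesion genes were mainly lower, 13 of 20 lower and 2 higher with a median of -0.35. After Itgae, Itgb3 fell 3.28-fold to 64.3 ± 4.23 CPM with IL-12 against 207 ± 15.8 CPM with IL-2 and Itgb1 1.9-fold to 168 ± 0.893 CPM with IL-12 against 315 ± 12.1 CPM with IL-2. The rises were Icam1, the ligand of LFA-1, at 134, 139 and 126 CPM in the IL-12 libraries, against 48, 47.7 and 49.2 CPM in the IL-2 libraries, with no overlap, and Cd44 at 153 ± 5.03 CPM with IL-12 against 97.6 ± 17.8 CPM with IL-2. The TGF-β list, which holds Itgae, had 4 of 20 higher and 10 lower: the receptor gene Tgfbr1 fell 1.81-fold and the SMAD repressor gene Ski 1.44-fold, while Smad3 rose 1.72-fold and Tgfbr3 1.51-fold.

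In the CD8, CD3 and TCR signalling list 9 of 25 rose and 4 fell, and without IL-2 replicate 3 the counts were 7 and 7. With upper-quartile scaling they were 6 and 8. The Src-family kinase genes Fyn (1.94-fold, to 587 ± 16.5 CPM with IL-12 against 299 ± 11 CPM with IL-2) and Lck (1.27-fold) and the adaptor gene Lcp2 (1.46-fold) rose. Plcg1 (1.42-fold), the inhibitory coreceptor gene Cd5 (1.5-fold) and Cd8b1 (1.29-fold, at 469 ± 12.6 CPM with IL-12 against 594 ± 72.4 CPM with IL-2) fell.

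Beside the rise of Ifng, interferon-stimulated genes were mostly lower: 31 of 53 fell and 11 rose, with a median of -0.46. Irf7, the amplifier of the type I interferon response, had 16.2, 18.4 and 18.1 CPM in the IL-12 libraries, against 47.2, 48.5 and 50.1 CPM in the IL-2 libraries. The IL-12 libraries were the 3 lowest, 2.82-fold lower (log2 fold change -1.49 with SE 0.07, adjusted p = 3e-09). Iigp1, an interferon-γ-inducible GTPase, fell 2.6-fold to 94 ± 2.56 CPM with IL-12 against 240.5 ± 18 CPM with IL-2, and Samd9l fell 2.42-fold. Against these stood Gbp2, with 1345, 1349 and 1349.6 CPM in the IL-12 libraries, against 322, 316 and 405 CPM in the IL-2 libraries, which was 3.81-fold higher without overlap. Usp18, which shuts off the type I interferon receptor, rose 8.22-fold to 201 ± 3.82 CPM with IL-12 against 24 ± 2.52 CPM with IL-2, and Ifi44 rose 8.11-fold to 46.3 ± 1.14 CPM with IL-12 against 5.61 ± 1.27 CPM with IL-2. Guanylate-binding proteins are a family of close copies, and the direction differed among them, Gbp2 being higher and Gbp10 lower. MHC class I and antigen processing genes had 4 of 23 higher and 8 lower. The peptide transporter gene Tap1 fell 1.49-fold to 465 ± 3.83 CPM with IL-12 against 684 ± 24 CPM with IL-2 and the class Ib genes H2-T24 and H2-T23 fell 1.57-fold and 1.26-fold, whereas the chaperone genes Pdia3 (1.34-fold) and Calr (1.41-fold) and the proteasome activator gene Psme2 (1.32-fold) rose. Reads of H2-T genes may be split among copies.

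**Figure D3:**
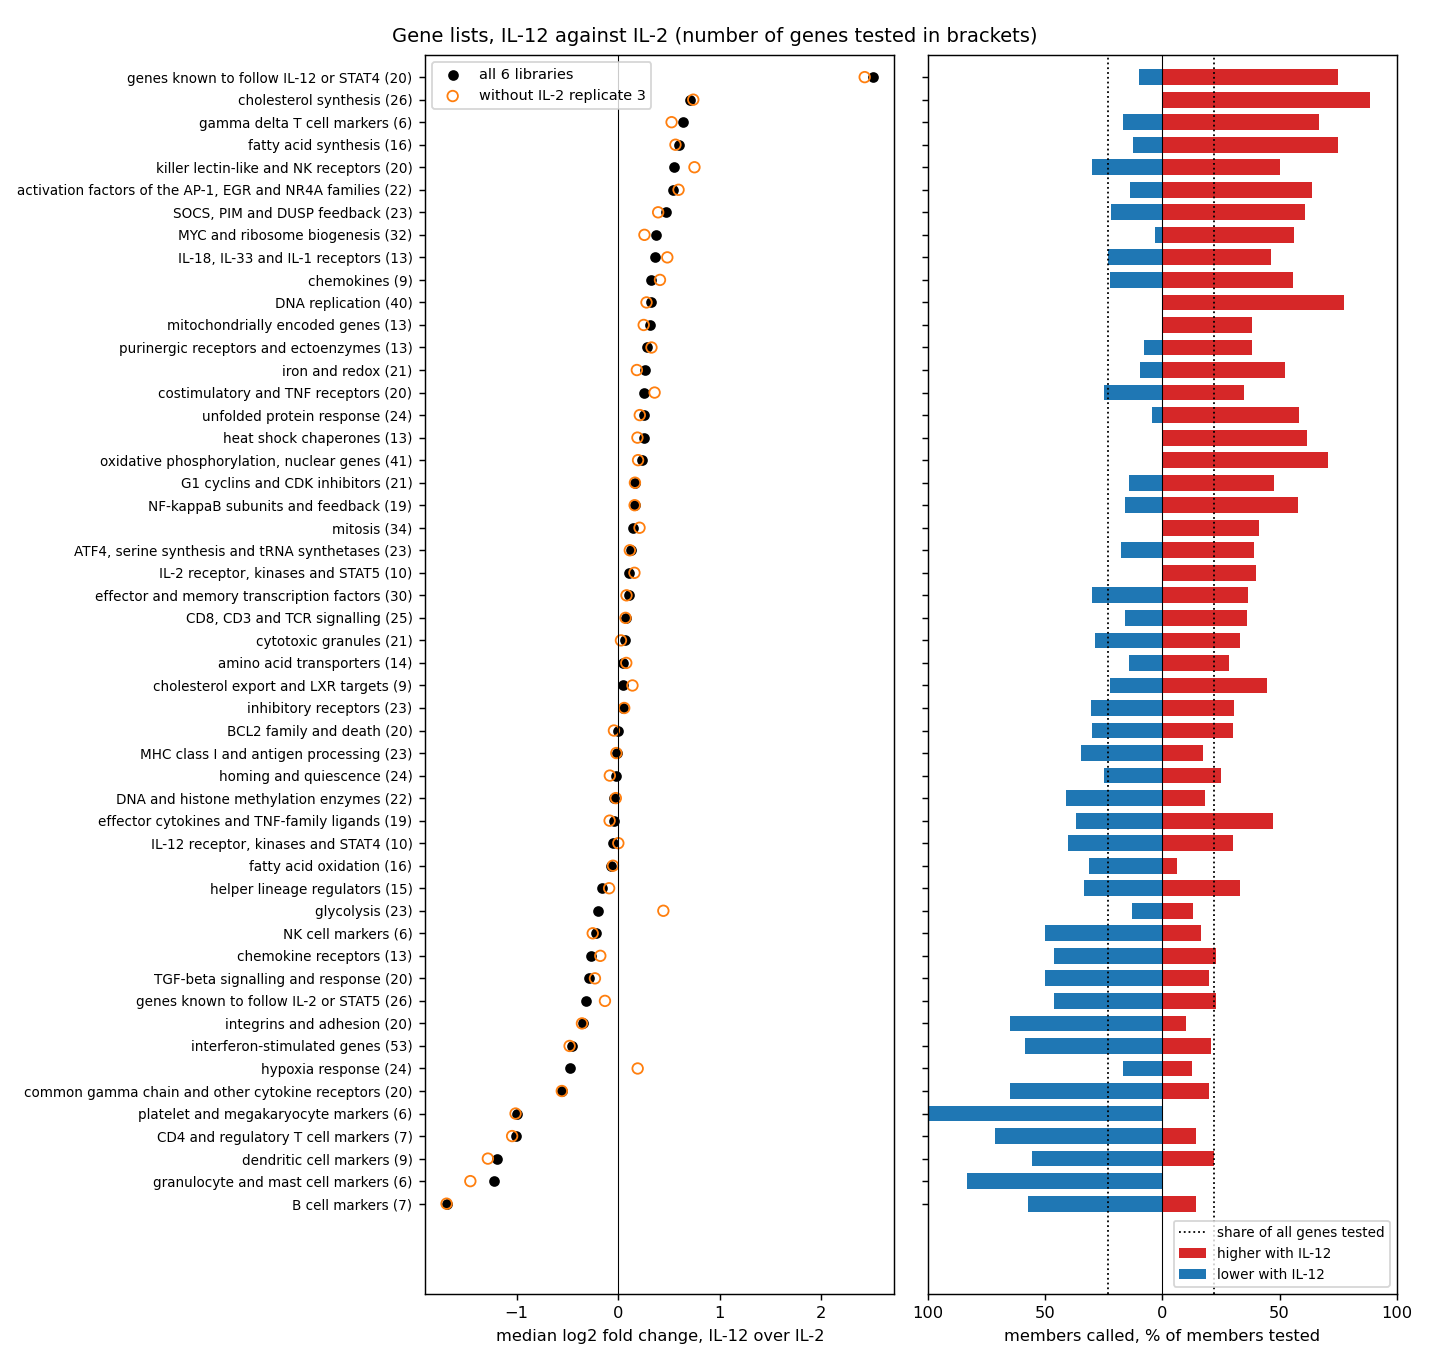
Gene lists with at least 5 genes tested, ordered by their median: on the left the median log2 fold change of IL-12 over IL-2 with all 6 libraries (filled) and without IL-2 replicate 3 (open), on the right the share of members called lower (blue, left) and higher (red, right), with dotted lines at the 23.0% and 22.1% of all genes tested. Cholesterol synthesis, DNA replication and nuclear oxidative phosphorylation genes were among the lists called in the upward direction alone, and the medians of glycolysis and of the hypoxia response lie on opposite sides of 0 with and without IL-2 replicate 3.

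DNA replication genes were higher as a list, 31 of 40 with 0 lower and a median of 0.32. Pcna, the sliding clamp of the replication fork, had 1067, 1059 and 1004 CPM in the IL-12 libraries, against 479.6, 458 and 400.1 CPM in the IL-2 libraries. It was more than 2-fold higher with no overlap (log2 fold change 1.21 with SE 0.07, adjusted p = 1.9e-08). Rrm2, a subunit of ribonucleotide reductase, rose 1.63-fold to 648 ± 24 CPM with IL-12 against 392 ± 18.6 CPM with IL-2 and the primase gene Prim2 1.41-fold. Mitosis genes followed in number and not in size, 14 of 34 higher and 0 lower with a median of 0.14, and 19 higher and 0 lower without IL-2 replicate 3. Top2a rose 1.27-fold to 2054 ± 72.8 CPM with IL-12 against 1593 ± 95.6 CPM with IL-2, Pttg1 1.24-fold and the cyclin B gene Ccnb1 1.3-fold, and the proliferation marker Mki67, at 1678 ± 42.7 CPM with IL-12 against 1606 ± 82.5 CPM with IL-2, was not called (adjusted p = 0.7). The counts of both lists moved with the scaling: with upper-quartile scaling 22 replication genes were higher and 0 lower, and 10 mitosis genes higher and 2 lower. Of all called genes with a mean above 100 CPM, as Top2a and Mki67 have, 73.2% were higher.

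The G1 cyclins went both ways: Ccnd3, cyclin D3, rose 2.25-fold to 360.4 ± 6.94 CPM with IL-12 against 157 ± 11.8 CPM with IL-2, while Ccnd2, cyclin D2, fell 1.49-fold to 248 ± 14.4 CPM with IL-12 against 364 ± 30.4 CPM with IL-2 and their kinase gene Cdk6 fell 2.29-fold. Over that list 10 of 21 rose and 3 fell, including a rise of the inhibitor gene Cdkn2d (1.52-fold). Of 32 MYC and ribosome biogenesis genes 18 rose and 1 fell, and 17 rose and 2 fell without IL-2 replicate 3. Myc had 143, 149.9 and 143 CPM in the IL-12 libraries, against 82.4, 88.4 and 94.8 CPM in the IL-2 libraries, with no overlap, and was 1.62-fold higher. Odc1, a classical MYC target, rose 1.51-fold, the MYC partner gene Max 1.4-fold and Mxd1, a MYC antagonist, 3.76-fold to 141 ± 5.52 CPM with IL-12 against 36.9 ± 3.87 CPM with IL-2; Mxd4, a related antagonist, was the 1 gene that fell with all 6 libraries, 3.84-fold to 49.7 ± 3.74 CPM with IL-12 against 188 ± 15.2 CPM with IL-2.

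Of 26 cholesterol synthesis genes 23 rose and 0 fell, with a median of 0.71, and with upper-quartile scaling 23 rose and 0 fell. Cyp51, lanosterol demethylase, had 345, 325 and 332 CPM in the IL-12 libraries, against 167, 173 and 167 CPM in the IL-2 libraries. The groups did not overlap (log2 fold change 0.96 with SE 0.04, adjusted p = 1.6e-09). Idi1 rose 2.28-fold to 89.5 ± 3.92 CPM with IL-12 against 38.6 ± 0.208 CPM with IL-2 and Msmo1 1.92-fold. Fatty acid synthesis genes had 12 of 16 higher and 2 lower: the elongase gene Elovl5 rose 2.1-fold to 363 ± 8.92 CPM with IL-12 against 170.2 ± 11.7 CPM with IL-2, the desaturase gene Fads2 2.44-fold and Acsl3 1.67-fold, while Acss2, an acetyl-CoA synthetase, fell 1.46-fold. Of 9 sterol export and LXR target genes 4 rose (2 with upper-quartile scaling) and 2 fell. Abca1 rose 1.46-fold to 41.3 ± 2.48 CPM with IL-12 against 27.8 ± 2.16 CPM with IL-2 and Mylip, which degrades the LDL receptor, 1.83-fold; Abcg1 fell 2.05-fold to 56.8 ± 3.47 CPM with IL-12 against 115 ± 12.5 CPM with IL-2. Fatty acid oxidation genes had 1 of 16 higher and 5 lower, and 3 higher and 5 lower without IL-2 replicate 3. Cpt1a, which admits fatty acids to mitochondria, fell 1.48-fold, Acaa2 1.38-fold and Acads 1.47-fold, and Acadl rose 2.2-fold to 244 ± 5.59 CPM with IL-12 against 109 ± 2.92 CPM with IL-2.

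Nuclear genes of oxidative phosphorylation rose in 29 of 41 cases with 0 lower, by small amounts (median 0.23). Cox5a, a subunit of cytochrome oxidase, rose 1.71-fold to 77.4 ± 4.43 CPM with IL-12 against 44.6 ± 5.04 CPM with IL-2, and the ATP synthase genes Atp5g1 and Atp5g3 rose 1.54-fold and 1.36-fold. With upper-quartile scaling the counts were 18 higher and 0 lower. Of the 13 mitochondrially encoded genes, 5 rose and 0 fell, among them mt-Co3 (1.51-fold) and mt-Nd1 (1.26-fold).

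Glycolysis and hypoxia response genes depended on IL-2 replicate 3. With all libraries the glycolysis list had 3 of 23 higher and 3 lower and a median of -0.20; without that library it had 4 higher and 2 lower and a median of 0.44. Pkm, pyruvate kinase, had 2194, 2069.7 and 2046 CPM in the IL-12 libraries, against 1138, 1192 and 3928 CPM in the IL-2 libraries. The IL-12 libraries lay between the low IL-2 replicates 1 and 2 and the high IL-2 replicate 3. The log2 fold change of Pkm was -0.02 (adjusted p = 0.98) with that library and 0.84 (adjusted p = 0.12) without it, and dropping replicate 3 from both IL-2 and IL-2 TCM called it (adjusted p = 3.1e-13). IL-2 replicate 3 was the highest of the 6 libraries in 19 of 23 glycolysis genes and in 21 of 24 hypoxia genes. Calls that held when any 1 of the 6 libraries was left out included the hexokinase gene Hk2 (134, 119 and 114 CPM in the IL-12 libraries, against 38.7, 42.7 and 44.6 CPM in the IL-2 libraries), the glucose transporter gene Slc2a1 and the lactate transporter gene Slc16a1. These 3 were higher with IL-12, 2.88-fold, 1.89-fold and 1.72-fold. Pdk1 fell 2.44-fold (1.75-fold without IL-2 replicate 3) and Pfkfb3 1.61-fold. The calls of Pdk1 and Pfkfb3 also held when any 1 of the 6 libraries was left out.

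The hypoxia list had 3 of 24 higher and 4 lower and a median of -0.48, which became 0.19 without IL-2 replicate 3, with 3 higher and 2 lower; upper-quartile scaling of all 6 libraries gave 7 lower. Hif1a itself was 1.85-fold higher with IL-12, at 422, 368 and 392 CPM in the IL-12 libraries, against 227, 237 and 167 CPM in the IL-2 libraries. The groups did not overlap for Hif1a. Anxa1 rose 2.29-fold. Epas1, which encodes HIF-2α, was among the genes at the lower end.

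**Figure D4:**
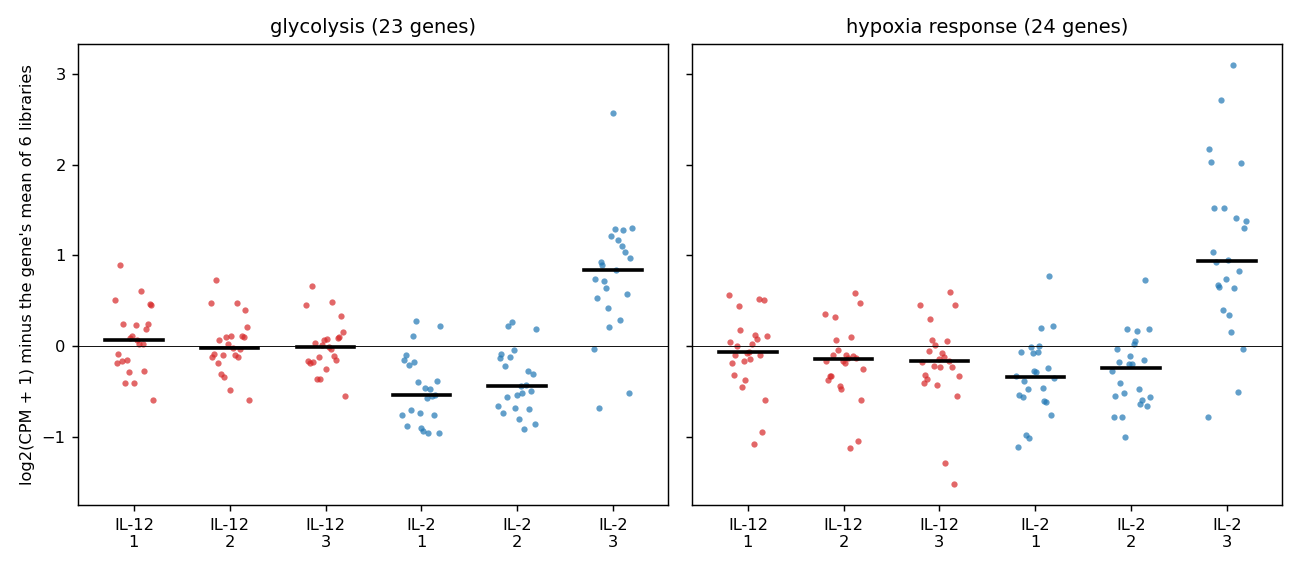
Log2(CPM + 1) of each glycolysis gene (left, 23 genes) and hypoxia response gene (right, 24 genes) minus the gene's mean over the 6 libraries (y axis), by library (x axis), IL-12 in red and IL-2 in blue, with the median of each library as a black bar. The glycolysis medians were 0.07, -0.02 and -0.01 in the IL-12 libraries and -0.54, -0.44 and 0.84 in the IL-2 libraries, with IL-2 replicate 3 apart from the other 5.

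Protein folding genes were called mainly upward. Of 24 unfolded protein response genes 14 rose and 1 fell. The sensor genes Ern1, which encodes IRE1α (2.79-fold, to 44.3 ± 3.03 CPM with IL-12 against 15.6 ± 1.39 CPM with IL-2), and Atf6 (1.79-fold) and the chaperone gene Hspa5 (1.61-fold, to 467 ± 27.4 CPM with IL-12 against 286 ± 31 CPM with IL-2) rose, and the stress factor gene Ddit3 fell 1.35-fold. Of 13 heat shock genes 8 rose and 0 fell (7 and 1 with upper-quartile scaling), led by Hsp90aa1 at 999 ± 68.4 CPM with IL-12 against 573 ± 16.6 CPM with IL-2. Of 23 ATF4, serine synthesis and tRNA synthetase genes 9 rose and 4 fell: Shmt2 rose 1.48-fold and the synthetase genes Gars and Aars 1.39-fold each, and Trib3 fell 3.22-fold. Amino acid transporters had 4 of 14 higher (2 with upper-quartile scaling) and 2 lower, with Slc38a2 at 357 ± 9.05 CPM with IL-12 against 198 ± 3.98 CPM with IL-2 (1.78-fold higher) and Slc16a10 3.89-fold and Slc43a1 3.14-fold lower. Of 21 iron and redox genes 11 rose and 2 fell. Fth1, the ferritin heavy chain, had 626, 617 and 611 CPM in the IL-12 libraries, against 338, 327 and 301 CPM in the IL-2 libraries, with no overlap and a 1.89-fold rise, and the glutathione reductase gene Gsr rose 1.67-fold.

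BCL2 family genes were even, 6 of 20 higher and 6 lower. Together with the fall of Bcl2, the BH3-only genes Pmaip1, which encodes NOXA, and Bcl2l11, which encodes BIM, rose 2.72-fold to 66.6 ± 1.31 CPM with IL-12 against 24.1 ± 3.41 CPM with IL-2 and 1.73-fold to 278 ± 11.9 CPM with IL-12 against 158 ± 8.15 CPM with IL-2, and the antiapoptotic gene Mcl1 rose 1.48-fold to 544 ± 12.7 CPM with IL-12 against 363 ± 34.3 CPM with IL-2. Bid fell 1.52-fold and Bbc3, which encodes PUMA, 1.3-fold. Of 13 purinergic genes 5 rose and 1 fell: beside P2rx7 and Adora2a, Bst1 rose 2.48-fold, and P2rx4 fell 1.69-fold. The list leaves out the ATP-gated channel gene P2rx3 described above, at a log2 fold change of 7.75. DNA and histone methylation enzymes had 4 of 22 higher and 9 lower. Eed, a subunit of the Polycomb complex, rose 2.0-fold to 128 ± 5.18 CPM with IL-12 against 63 ± 3.27 CPM with IL-2, and the demethylation gene Tet3 (1.86-fold), the methyltransferase gene Dnmt3b (2.32-fold) and Ehmt2 (1.37-fold) fell.

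Markers of other cell types moved with the groups as well. In bulk RNA, fewer cells of a type and less RNA per cell cannot be told apart. The summed level of 13 B cell markers was 100.1 to 102.1 CPM with IL-12 and 457 to 803 CPM with IL-2, mostly Ighm. Of 7 B cell markers tested 4 fell and 1 rose, Cd79b falling 3.21-fold at 4.96 CPM with IL-12 against 15.7 CPM with IL-2 while Igkc rose 2.37-fold at 7.42 CPM with IL-12 against 3.08 CPM with IL-2. Platelet markers summed to 120.1 to 138.1 CPM with IL-12 and 300.1 to 342 CPM with IL-2. Itgb3, also in the integrin list, alone gave 59.6 to 67.7 CPM of these sums with IL-12 and 191 to 223 CPM with IL-2. All 6 tested fell, among them Itgb3, Itga2b (27.2 ± 2.93 CPM with IL-12 against 42.3 ± 3.91 CPM with IL-2), Ppbp (16.5 ± 1.61 CPM with IL-12 against 32.6 ± 4.75 CPM with IL-2) and Pf4 (17.3 ± 1.91 CPM with IL-12 against 31.9 ± 6.09 CPM with IL-2). Gp1bb was at 0 in all 6 libraries. Dendritic cell markers summed to 73.3 to 77.9 CPM with IL-12 and 109.0 to 144.3 CPM with IL-2, mostly Cd74, H2-Ab1 and Batf3. H2-Ab1 was at 62.3 CPM in IL-2 replicate 3, against 19.1 and 20.5 CPM in IL-2 replicates 1 and 2. Flt3, Clec9a and Siglech were below 1 CPM in every library. Of 9 dendritic cell markers tested, 5 were lower (Cd74 2.29-fold lower and H2-Aa 2.79-fold lower) and 2 higher, and 1 higher and 5 lower without IL-2 replicate 3. Among the 2 that rose was Xcr1, with 10.4, 11.2 and 9.57 CPM in the IL-12 libraries, against 1.32, 1.94 and 3.07 CPM in the IL-2 libraries. Granulocyte and mast cell markers summed to 13.0 to 16.3 CPM with IL-12 and 30.9 to 52.2 CPM with IL-2, 5 of 6 lower, led by Cpa3 at 9.32 ± 1.25 CPM with IL-12 against 29.9 ± 8.05 CPM with IL-2; S100a8 and S100a9 were at 0.

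NK cell markers, 3 of 6 lower and 1 higher (2 higher and 2 lower without IL-2 replicate 3), summed to 65.4 to 66.9 CPM with IL-12 and 77.4 to 89.0 CPM with IL-2, mostly Eomes and Prf1, which CD8+ T cells express too. Ncr1, Klrb1c and Klra8 were below 1 CPM in every library. Monocyte and macrophage markers summed to 6.34 to 8.26 CPM with IL-12 and 8.45 to 11.3 CPM with IL-2, with 0 of 2 called (0 higher and 1 lower without IL-2 replicate 3) and C1qa and Marco at 0. Erythroid markers summed to 2.09 to 2.62 CPM with IL-12 and 3.77 to 4.27 CPM with IL-2, 2 of 3 lower and Slc4a1 at 0. γδ T cell genes ran the other way, 4 of 6 higher and 1 lower (3 higher and 0 lower without IL-2 replicate 3), at 150.5 to 166 CPM with IL-12 and 76.9 to 100.7 CPM with IL-2; Tcrg-C2 averaged 55.4 ± 1.23 CPM with IL-12 against 27.5 ± 3.34 CPM with IL-2. Of 7 CD4 and regulatory T cell markers 5 fell and 1, Il2ra, rose. The low markers Izumo1r and Cxcr5 fell 7.57-fold and 2.12-fold. The part of these other cells in the falls of Ighm, Itgb3 and the MHC class II genes was not tested. Itgae is expressed by CD8+ T cells and also by some dendritic cells.

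With TCM in both groups the cytokine difference was similar in extent, 6192 of 15897 genes called (39.0%). Those 6 libraries are separate from the 6 without TCM, so the pair of comparisons shares no library, though the same fit over all 12 libraries gave both. Of the 7171 genes called without TCM, 6819 (95.1%) had the same sign with TCM and 4678 (65.2%) were called with the same sign, while 27 were called with the opposite sign. Of the 582 genes at least 2-fold higher, 513 (88.1%) were called higher with TCM, where 19.5% of all genes were, and of the 1164 at least 2-fold lower, 818 (70.3%) were called lower, where 19.4% of all genes were. Over all genes tested the log2 fold changes had a Pearson r of 0.862, given as a description, since genes are not independent replicates.

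The difference of the cytokine effect by TCM was called in 251 genes (1.58%), 189 with the higher value with TCM (1.19%) and 62 with the lower (0.390%). That count moved with nearly every single library left out. It was 114, 105 and 116 without IL-12 TCM replicates 1, 2 and 3, and 149, 142 and 1164 without IL-2 TCM replicates 1, 2 and 3. Among the libraries without TCM it was 108, 114 and 121 without IL-12 replicates 1, 2 and 3, and 185, 148 and 275 without IL-2 replicates 1, 2 and 3. Dropping replicate 3 from both IL-2 and IL-2 TCM gave 2105. Trim66 had a log2 fold change of 6.72 with TCM and 3.68 without it (adjusted p of the difference 0.00068), Cd93 0.22 and -2.17, and the neutrophil chemokine receptor gene Cxcr2 6.82 and 4.60. In the other direction Arhgap29 had 3.11 with TCM and 4.66 without it, Rap1gap2, a Rap1 regulator, -1.96 and -0.15, and the Rab regulator Tbc1d4 -3.17 and -1.92.

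**Figure D5:**
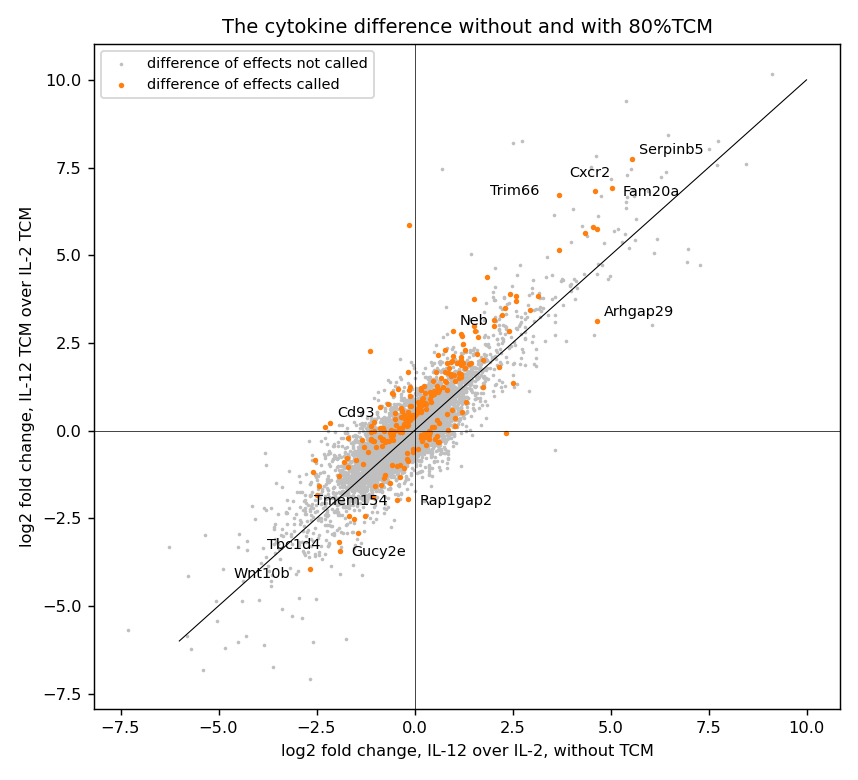
Log2 fold change of IL-12 over IL-2 with 80%TCM in both groups (y axis) against that without TCM (x axis), 1 point per gene, with the line of equal effects; the 251 genes whose difference of effects was called are orange. Most points follow the line, and Trim66 and Cd93 are labelled above it and Arhgap29 and Rap1gap2 below it.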

How the data were processed

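Total RNA of spleen CD8+ T cells was sequenced with a directional kit. The submitters' processing notes name STAR 2.7.7a, edgeR and a human genome build, while the gene identifiers and all labels are mouse. Whether counting used the strand is not given here, so overlapping antisense genes may not be told apart. The extraction text also speaks of livers after a drug treatment that no sample label names. The authors deposited raw counts per gene for 12 libraries (55487 genes, 19500568 to 49638920 counts each). They also deposited a normalized signal per gene, which equals edgeR's CPM on TMM-scaled library sizes recomputed from the counts up to 1 factor per library, and these CPM are the levels printed here. Genes without a symbol held 0.0294% to 0.0526% of counts.

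The counts were fitted in edgeR 4.0.16 (R 4.3.3), with 1 mean per group over all 12 libraries, TMM scaling, a low-count filter (minimum 10, total 15) that kept 15897 genes, quasi-likelihood F tests and Benjamini-Hochberg adjustment at 0.05. The method was tested on simulated data with the same spread for all genes and no outlying library. That test therefore does not cover the effect of IL-2 replicate 3 on the calls. No pair of replicates held identical counts. Alternatives were DESeq2 1.42.0, limma 3.58.1 on log2(CPM + 1) and log2(CPM + 0.1), other scalings and filters, the 2 groups alone, a replicate block, and each library left out. Named genes were the 15 highest and 15 lowest log2 fold changes among called genes with at least 10 CPM and no overlap, up to 3 called genes per list and direction, anchor genes, and the 6 highest and 6 lowest called differences by TCM. Cd3e, Cd4, Egr1, Fasl, Fos, Gadd45g, Ifnar1, Map3k8, Myd88, Nr4a1, Pf4, Pkm and Tnfsf10 were added after their values were seen. The members and gene lists were chosen with earlier results of these data known. A few genes the rule names are not reported here. List counts are descriptions, with no test of a list.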

Additional observations from a re-analysis of the deposited data

Results flagged for a closer look

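In 28 of the genes named here the log2 fold change of IL-12 over IL-2 differed between the libraries with and without TCM, by the test of the difference itself in edgeR's quasi-likelihood fit over all genes (adjusted p 0.00026 to 0.048). Of these, 12 were named for being among the 6 highest and 6 lowest called differences, so that their calls follow from the rule that named them, and over all genes tested 1.58% were called. Each gene is given with the effect with TCM minus that without it, and then with both effects on the log2 scale.

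The largest positive differences were those of Trim66 3.04 (6.72 with TCM and 3.68 without it), Cd93 2.38 (0.22 with TCM and -2.17 without it), Cxcr2 2.22 (6.82 with TCM and 4.60 without it), Serpinb5 2.20 (7.74 with TCM and 5.54 without it), Fam20a 1.88 (6.91 with TCM and 5.03 without it) and Neb 1.87 (2.84 with TCM and 0.97 without it). Smaller positive differences were found for Abca1 1.12 (1.67 with TCM and 0.55 without it), Cxcr6 1.12 (3.70 with TCM and 2.59 without it), Itgb3 0.93 (-0.78 with TCM and -1.71 without it), Mylip 0.91 (1.78 with TCM and 0.87 without it), Abcg1 0.74 (-0.29 with TCM and -1.04 without it), Irf7 0.67 (-0.83 with TCM and -1.49 without it), Fth1 0.65 (1.57 with TCM and 0.92 without it), Nfatc2 0.52 (1.15 with TCM and 0.63 without it), Acadl 0.38 (1.51 with TCM and 1.14 without it) and Bcl2 0.35 (-0.95 with TCM and -1.31 without it).

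Negative differences of over 1.2 were those of Rap1gap2 -1.81 (-1.96 with TCM and -0.15 without it), Arhgap29 -1.55 (3.11 with TCM and 4.66 without it), Gucy2e -1.52 (-3.42 with TCM and -1.90 without it), Tmem154 -1.52 (-1.97 with TCM and -0.45 without it), Wnt10b -1.28 (-3.96 with TCM and -2.68 without it) and Tbc1d4 -1.25 (-3.17 with TCM and -1.92 without it). The others were those of Cd44 -0.94 (-0.32 with TCM and 0.62 without it), Bbc3 -0.93 (-1.31 with TCM and -0.38 without it), Rasgrp2 -0.76 (-2.43 with TCM and -1.67 without it), Bcl6 -0.68 (0.35 with TCM and 1.03 without it), mt-Nd1 -0.50 (-0.17 with TCM and 0.33 without it) and Bst1 -0.49 (0.82 with TCM and 1.31 without it). Cd93, Cd44 and mt-Nd1 had effects of opposite sign in the 2 settings. The count of calls of this difference moved with single libraries left out, and the cause was not tested.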

How the results depend on the processing

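The 7171 calls became 5266 to 7454 under the other tools, scalings, filters and designs, 8342 with replicate 3 dropped from both IL-2 and IL-2 TCM, and 5595 to 6673 with 1 library left out. The 5266 came from a filter at a mean of at least 5 CPM, which tested fewer genes, so that it is no count of calls lost. A minimum 2-fold change kept 1746 calls, 582 higher and 1164 lower. The 251 calls of the difference by TCM became 779 without the filter, where more genes were tested, 550 with DESeq2, 105 to 1164 with 1 library left out, 2105 with replicate 3 dropped from both IL-2 and IL-2 TCM (an alternative chosen after seeing the data) and 64 with a 2-fold minimum. The cause was not tested. Of 251 genes named, 11 lost or gained a call or changed sign. Those that changed sign were not called with all 6 libraries. Log2 fold changes turned to -0.015 for Gzma, -0.033 for Lag3 and -0.038 for Mki67 with upper-quartile scaling, to 0.12 for Il12rb1 without IL-2 replicate 3, and to 0.12 with replicate 3 dropped from both groups. With 1 library left out, Il12rb1 ranged over -0.18 to 0.12, Lag3 over -0.087 to 0.36 and Pkm over -0.30 to 0.84. Lag3 was -0.087 without IL-2 replicate 1 and -0.062 without IL-2 replicate 2. Pkm turned to 0.012 without the filter, 0.27 with limma at either pseudocount, 0.26 with the block, 0.83 with replicate 3 dropped from both groups, 0.84 without IL-2 replicate 3, 0.013 without IL-12 replicate 2 and 0.0072 without IL-12 replicate 3. The medians of 13 of 53 lists changed sign under at least 1 alternative.

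The replicate numbers are shared by the groups, but nothing in the labels pairs them, and same-numbered libraries deviated together only weakly (r = 0.094, 0.072 and 0.029), although each library correlated best with its own number. With the replicate number as a block, 7454 genes were called, 3665 higher and 3789 lower, and 330 for the difference by TCM. IL-12 replicates 1 and 2 were sequenced deeper than the other 4 libraries.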
